A study of Mus musculus with 6 samples.

Results

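Netrins and their receptors were followed as a set of 9 genes, chosen by family from gene symbols: the netrins Ntn1, Ntn3 and Ntn4, the receptors Dcc and Neo1, and the receptors Unc5a, Unc5b, Unc5c and Unc5d. Of these, 8 were found among the 24749 identifiers of the expression table, and Ntn3 was not analysed here because its identifier in the annotation had no match in the table. The set was built around Ntn1, which had been picked for its strong fall between genotypes, so its difference is given as a description with no test. Levels are FPKM, fragments scaled to transcript length and library size, which allows levels of different genes to be set side by side.

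Netrins are secreted guidance proteins related to laminins, and their receptors are the transmembrane proteins DCC, neogenin and the UNC5 family. Binding through DCC or neogenin is best known for attracting growing axons and migrating cells, and binding through UNC5 receptors for repelling them. Several of these receptors are also known as dependence receptors, which can trigger cell death when no ligand is bound. In the developing kidney, netrin-1 is known as a product of the stromal progenitors that express Foxd1, and UNC5B is known as a guidance receptor of endothelial cells.

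RNA came from whole dissected kidneys of mouse embryos at E15.5 (embryonic day). The 3 knockout libraries carried a Foxd1-driven Cre recombinase with loxP-flanked alleles of Yap and of Taz (genotype Foxd1cre; Yapc/c;Tazc/c), so that recombination takes place in the stromal lineage and not in the whole organ. The 3 control libraries were labelled wild-type (Cre negative), and the sources used here do not say whether they carried floxed alleles. The strain was mixed in both groups. The products of Yap1 (YAP) and Wwtr1 (TAZ) co-activate transcription under control of the Hippo pathway, and the study asks how they act in the differentiation of kidney pericytes.

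Depth came to about 12700000 to 15500000 fragments per library. Wwtr1 measured 68.4% of wild type in the knockout libraries (limma adjusted p = 0.0235). Yap1 was at 88.9%, but its groups overlapped and it was not called (limma adjusted p = 0.378). Wild-type library 3 stood apart in nerve cell transcripts: the summed level of 7 neuron markers was 87.6 FPKM in it and between 6.46 and 8.67 FPKM in the other 5 libraries, with the catecholamine enzyme gene Th at 17.8 FPKM against at most 0.0918 FPKM elsewhere. The change of each tested member is therefore also given without it. The labels do not tie libraries to separate embryos, so p-values cover only the spread between libraries, part of which may be technical.

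Because related genes can exchange reads during quantification, the annotated transcripts of the 9 genes were compared first. Of the 6245 different stretches of 31 bases in Ntn1 transcripts, 0 occurred in a transcript of another member or of the related netrin gene Ntn5. Unc5b shared 2 of its 6238 stretches with family members, Unc5c 9 of 19151 and Unc5d 7 of 9303. Coding sequences of Ntn1 and Ntn3 had at most 17 bases in a row in common, Ntn1 and Ntn4 14, and Unc5b and Unc5c 27.

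The longest coding run common to all 3 netrins was 11 bases, and 2 runs reached that length. One of them is printed in capitals with its flanks, from the transcripts of GENCODE M21. The windows were placed by the run alone, with no alignment of the genes. The Ntn3 window ends in the first bases of the 17-base run that Ntn3 shares with exon 4 of Ntn1. It therefore may not match the Ntn1 window in position, and the flanks do not measure how far the netrins diverge. The windows are chr11:68385232-68385282 on the minus strand for Ntn1 (exon 3), chr17:24207949-24208070 on the minus strand for Ntn3 (the end of exon 1 joined to exon 2) and chr10:93682602-93682652 on the plus strand for Ntn4 (exon 3), all on GRCm38 and all coding.
Ntn1: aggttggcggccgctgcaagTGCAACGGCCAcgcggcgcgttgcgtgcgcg
Ntn3: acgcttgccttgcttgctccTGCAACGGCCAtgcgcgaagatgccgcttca
Ntn4: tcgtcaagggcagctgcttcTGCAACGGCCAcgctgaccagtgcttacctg

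The 4 Unc5 receptors had a common coding run of 14 bases, in exon 3 of each. The windows are chr13:54995848-54995901 (plus strand, Unc5a), chr10:60780134-60780187 (minus strand, Unc5b), chr3:141714695-141714748 (plus strand, Unc5c) and chr8:28875535-28875588 (minus strand, Unc5d), on the same build and from the same transcripts. Flanking bases differ between the receptors on both sides of the capitals, which mark the common run.
Unc5a: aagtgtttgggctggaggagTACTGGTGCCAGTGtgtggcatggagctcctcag
Unc5b: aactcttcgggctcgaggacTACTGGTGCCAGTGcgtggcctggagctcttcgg
Unc5c: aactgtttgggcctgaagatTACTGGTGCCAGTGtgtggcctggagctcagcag
Unc5d: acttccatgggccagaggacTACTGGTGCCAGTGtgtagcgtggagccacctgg

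Among the ligands, Ntn1 (ENSMUSG00000020902, chromosome 11, 68209364 to 68400823, minus strand), which encodes netrin-1, measured 8.78, 10.2 and 11.6 FPKM in wild-type libraries 1, 2 and 3. In the knockout libraries it measured 2.90, 2.65 and 2.33 FPKM. The 2 groups did not overlap, every knockout value being under the lowest control value, and no other gene model overlaps the exons of Ntn1. The mean fell from 10.2 ± 1.39 to 2.63 ± 0.288 FPKM (SD, n = 3 each), 25.8% of wild type, a log2 change of -1.62. These are the values for which the gene was picked. Without wild-type library 3, where Ntn1 was highest, the log2 change was -1.53. In RNA from a whole organ, fewer cells of a type and less RNA per cell cannot be told apart.

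Ntn4 (ENSMUSG00000020019, chromosome 10, 93640681 to 93747207, plus strand) encodes netrin-4, a basement membrane protein that binds laminin. It measured 1.50, 1.56 and 1.93 FPKM in wild-type libraries 1 to 3, and 2.19, 1.69 and 1.90 FPKM in knockout libraries 1 to 3. The groups overlapped, and the log2 change of 0.14 (SE 0.11, limma adjusted p = 0.581) had a 95% confidence interval from -0.12 to 0.40. The data therefore show no netrin-4 difference beyond the spread between libraries, while an increase of up to that upper bound lies within the interval. Without wild-type library 3, which had the highest control value, the change was 0.21 (limma adjusted p = 0.367). That was the largest change with 1 library left out, and without knockout library 1 it was 0.07 (limma adjusted p = 0.801). The ratio of Ntn1 to Ntn4 was 5.84, 6.55 and 5.99 in the wild-type libraries and 1.33, 1.57 and 1.22 in the knockout libraries, so that Ntn1 was the more abundant of the pair in every library. Ntn1 and Ntn4 together summed to 11.8 ± 1.60 FPKM in controls and to 4.56 ± 0.468 FPKM in knockouts (SD, n = 3 each). Both the ratio and the sum carry the values for which Ntn1 was picked.

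**Figure D1:**
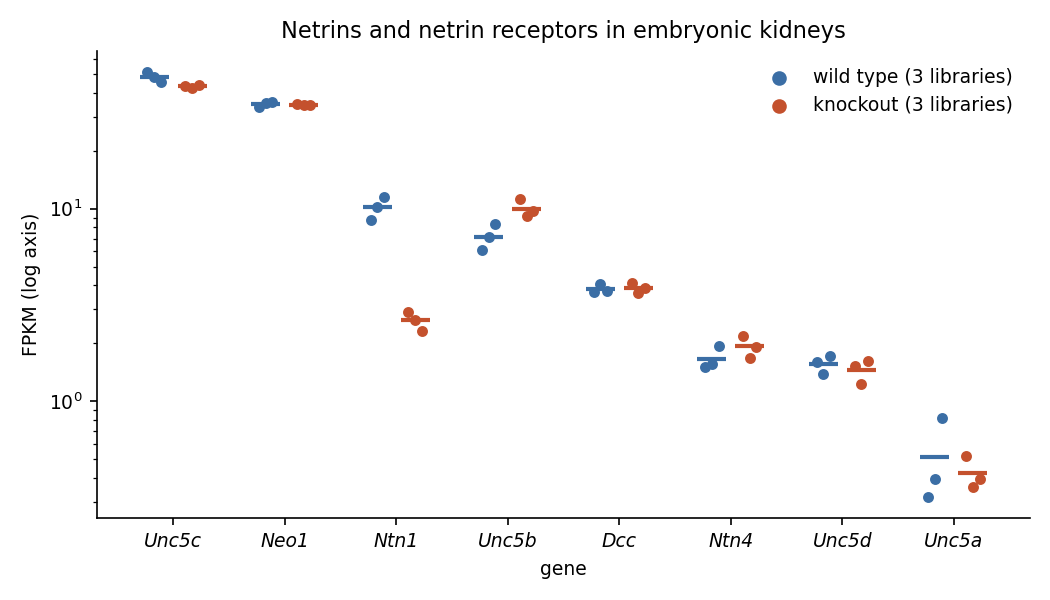
FPKM of the 8 measured members on a log axis, with 1 point per library and a bar at the mean of each genotype (blue wild type, red knockout, 3 libraries each). Ntn1 lies between 8.78 and 11.6 FPKM in wild-type and between 2.33 and 2.90 FPKM in knockout libraries, while the levels of Neo1 and Dcc overlap between genotypes.

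Of the receptors, Neo1 (ENSMUSG00000032340, chromosome 9, 58874687 to 59036441, minus strand) encodes neogenin, which also binds repulsive guidance molecules and takes part in BMP signalling. It was among the most abundant members at 33.9, 35.4 and 35.6 FPKM in the wild-type and 34.8, 34.5 and 34.5 FPKM in the knockout libraries. The knockout values all fell within the wild-type range. The change on the log2 scale was -0.01 (SE 0.05) with a 95% confidence interval from -0.13 to 0.10, and the limma adjusted p was 0.904. It was 0.00 without wild-type library 3.

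Dcc (ENSMUSG00000060534, chromosome 18, 71253634 to 72351069, minus strand), which encodes the attractive netrin receptor of axons, was the less abundant of this pair of related receptors: the ratio of Neo1 to Dcc was 9.16 ± 0.435 in wild-type and 8.94 ± 0.459 in knockout kidneys (SD, n = 3 each). Dcc measured 3.69, 4.06 and 3.72 FPKM in the wild-type and 4.10, 3.67 and 3.87 FPKM in the knockout libraries. The groups overlapped, and the log2 change was 0.02 (SE 0.08, limma adjusted p = 0.948, 95% confidence interval from -0.18 to 0.21). In wild-type library 3, with its nerve cell transcripts, Dcc was at 3.72 FPKM, between the values of wild-type libraries 1 and 2, and without that library the log2 change was 0.00.

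Unc5c (ENSMUSG00000059921, chromosome 3, 141465216 to 141834924, plus strand) encodes one of the repulsive receptors and had the highest level of all members. It measured 51.3, 48.4 and 45.6 FPKM in wild-type libraries and 43.5, 42.5 and 43.8 FPKM in knockout libraries. Every knockout library lay below every wild-type library, as was so for 11.8% of all genes tested. Its log2 change of -0.16 (SE 0.06, 95% confidence interval from -0.29 to -0.03) was not called over all genes (limma p = 0.0256, adjusted p = 0.248), and the exact permutation p was 0.1, the smallest that 3 against 3 libraries allow. Without wild-type library 3, the lowest of its group, the change was -0.20 (limma adjusted p = 0.144). That was the largest change with 1 library left out, and without wild-type library 1 it was -0.12 (limma adjusted p = 0.419). Set against the sum of 10 cortical stroma markers, Unc5c was at 9.02 ± 0.748 per 100 FPKM of markers in wild-type and 8.99 ± 0.0680 in knockout kidneys (SD, n = 3 each). That ratio overlapped between genotypes. The marker sum itself was at 89.6% of wild type, with 7 of 10 markers below 0, so it is no fixed measure of stroma. Which cells held the Unc5c transcripts was not measured, and the ratio was not tested. Unc5c shares exon sequence with the gene model Gm15688 on the opposite strand, and the sources used here do not say whether the libraries kept strand.

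Unc5b (ENSMUSG00000020099, chromosome 10, 60762593 to 60831581, minus strand), the receptor known from endothelial cells, lay the other way. It measured 6.09, 7.12 and 8.28 FPKM in the wild-type and 11.2, 9.11 and 9.68 FPKM in the knockout libraries. Every knockout library lay above every wild-type library, as for 12.5% of all genes tested. The log2 change of 0.43 (SE 0.12, 95% confidence interval from 0.16 to 0.71) had a limma p of 0.00690 and an adjusted p of 0.169, so it was not called, and the exact permutation p was 0.1. Without wild-type library 3, which had the highest wild-type value, the log2 change was 0.53 and its limma adjusted p 0.0796. That was the largest change with 1 library left out. Without wild-type library 1 the change was 0.34, and without knockout library 1 it was 0.36 (limma adjusted p = 0.277 and 0.336). The summed level of 8 endothelial markers was 187 to 200 FPKM in wild-type and 190 to 194 FPKM in knockout libraries, 99.7% of wild type, with 0 of 8 called. Per 100 FPKM of these markers Unc5b was at 3.73 ± 0.696 in wild-type and 5.20 ± 0.553 in knockout kidneys (SD, n = 3 each), again without overlap. With so level a marker sum this ratio mostly restates the Unc5b values, and it was not tested. Which cells held the Unc5b transcripts was not measured.

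The remaining receptors of the family were scarce. Unc5d (ENSMUSG00000063626, chromosome 8, 28646717 to 29219636, minus strand) measured 1.60, 1.38 and 1.72 FPKM in the wild-type and 1.53, 1.22 and 1.61 FPKM in the knockout libraries, and the groups overlapped (log2 change -0.07, SE 0.11, limma adjusted p = 0.798, 95% confidence interval from -0.32 to 0.18). Without wild-type library 3 the Unc5d change was -0.02. Unc5a (ENSMUSG00000025876, chromosome 13, 54949411 to 55006018, plus strand) measured 0.320, 0.395 and 0.819 FPKM in the wild-type and 0.521, 0.357 and 0.394 FPKM in the knockout libraries. Its mean over the 6 libraries was under the 0.5 FPKM minimum, so it was not tested. Those values stand for roughly 16 to 44 fragments per library, if all come from the longest annotated coding transcript. The highest Unc5a value was that of wild-type library 3, the one with nerve cell transcripts, whose part in the value was not tested. The other control libraries, at 0.320 and 0.395 FPKM, overlapped the knockout range. Unc5a also shares exon sequence with Hk3 on the opposite strand.

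Of the 6 members tested other than Ntn1, 0 were called by limma at an adjusted p under 0.05, where 0.734% of all 16899 genes tested were called, 0.604% lower and 0.13% higher. At an unadjusted p under 0.05, 1 lay higher (Unc5b) and 1 lower (Unc5c), where 16.1% of all genes passed, 9.14% higher and 6.94% lower. The groups did not overlap for these same receptors, and for 24.3% of all genes tested. Dcc, Neo1, Ntn4 and Unc5d overlapped between genotypes.

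**Figure D2:**
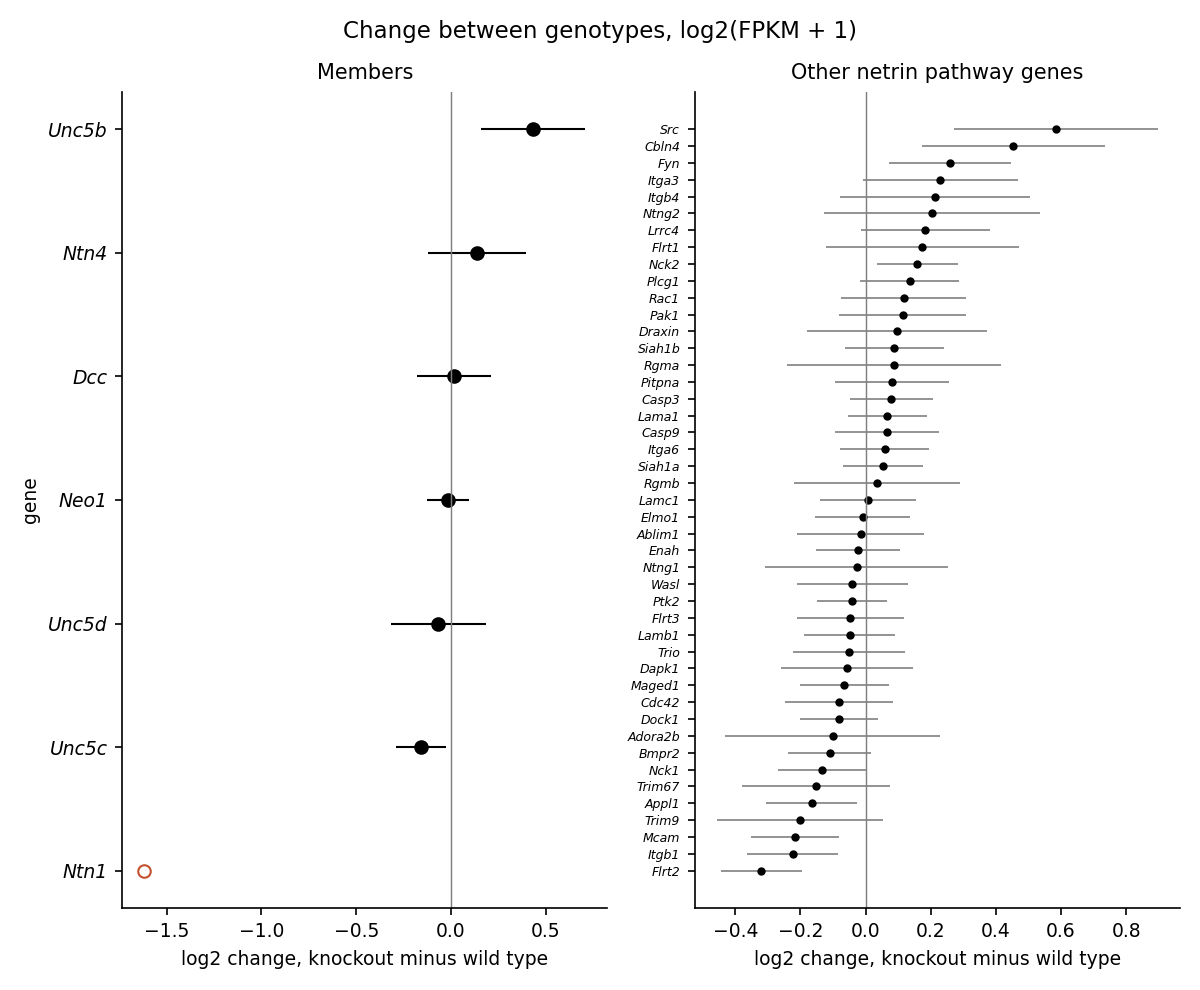
Log2 change, knockout minus wild type, on log2(FPKM + 1) with bars for the 95% confidence interval: members on the left and other genes of the netrin pathway on the right, with separate horizontal scales. Ntn1 at -1.62 is drawn as an open circle with no interval because it was picked for its fall, and Tubb3, high in 1 wild-type library, is left out of the right panel.

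The make-up of the Unc5 family follows from the levels given above, in which no receptor was called. The 4 receptors summed to 57.7 ± 1.44 in wild-type and 55.2 ± 1.84 FPKM in the knockout kidneys (SD, n = 3 each). Unc5c made up 86.5%, 84.5% and 80.8% of that sum in the wild-type libraries and 76.7%, 79.9% and 79.0% in the knockout libraries. Unc5b made up 10.3%, 12.4% and 14.7% in wild-type and 19.7%, 17.1% and 17.4% in knockout libraries. Neither share overlapped between genotypes, where 24.3% of all genes tested did not overlap in level, and both shares are parts of 1 sum. Without wild-type library 3 the lowest control share of Unc5c was 84.5% and the highest of Unc5b 12.4%. The ratio of Unc5c to Unc5b went from 6.91 ± 1.46 to 4.36 ± 0.412 (SD, n = 3 each). The shares and the ratio were formed after the values were seen and were not tested.

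**Figure D3:**
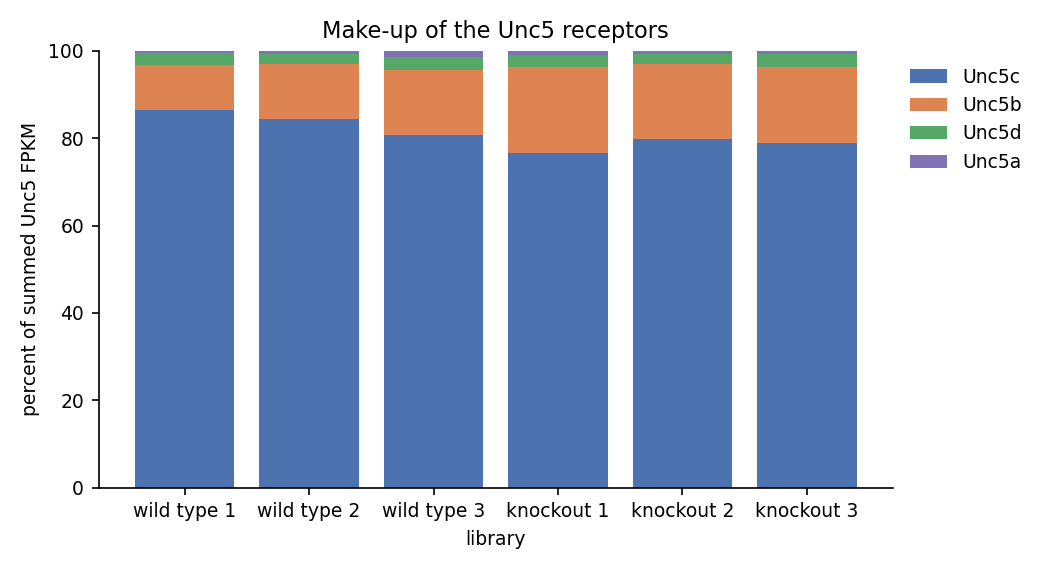
Share of each Unc5 receptor in the summed Unc5 FPKM of each library, in percent, as stacked bars for 3 wild-type and 3 knockout libraries. Unc5c takes 80.8% to 86.5% in wild-type and 76.7% to 79.9% in knockout libraries, and Unc5b fills most of the rest.

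In wild-type kidneys the order of the mean levels was Unc5c, Neo1, Ntn1, Unc5b, Dcc, Ntn4, Unc5d and Unc5a. Neighbours in this order did not overlap in their ranges over 3 libraries, except Ntn4 and Unc5d. In knockout kidneys the order was Unc5c, Neo1, Unc5b, Dcc, Ntn1, Ntn4, Unc5d and Unc5a, with no overlap between any neighbours. Ntn1 thus stood above Unc5b and Dcc in every wild-type library and below both in every knockout library. This order and the Ntn1 ratios that follow carry the values for which Ntn1 was picked. They were not tested, and the Unc5b change was not called. The ratio of Ntn1 to Unc5b was 1.44, 1.43 and 1.39 in wild-type and 0.259, 0.291 and 0.241 in knockout libraries. Relative to Neo1, Ntn1 was at 0.290 ± 0.0328 in wild-type and 0.0760 ± 0.00801 in knockout kidneys (SD, n = 3 each). The 6 measured receptors summed to between 95.8 and 96.9 FPKM in wild-type and between 91.4 and 95.7 FPKM in knockout libraries.

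The level of Ntn1 was then set beside markers of the cells that could hold its transcripts. The summed level of the 10 cortical stroma markers was 527 to 554 FPKM in wild-type and 469 to 492 FPKM in knockout libraries, 89.6% of wild type. Of these markers 0 were called and 7 of 10 lay below 0, where 0.734% of all genes tested were called and 8517 of 16899 lay below 0. Foxd1, which is itself the locus that drives Cre, is among them at 58.9% of wild type. Per 100 FPKM of cortical stroma markers, Ntn1 was at 1.66, 1.92 and 2.08 FPKM in the wild-type and 0.600, 0.565 and 0.474 FPKM in the knockout libraries. Its mean went from 8.42 in wild type to 3.14 in knockout kidneys per 100 FPKM of medullary stroma markers. It went from 5.71 to 1.81 for pericyte markers and from 11.5 to 4.44 for smooth muscle markers. These ratios carry the values for which Ntn1 was picked. Medullary stroma markers summed to 68.3% of wild type (1 of 6 called, lower, and 5 below 0), pericyte markers to 81.3% (1 of 8 called, lower, and 4 below 0) and smooth muscle markers to 67.8% (2 of 8 called, both lower, and all 8 below 0). Changes within the lists were uneven. Log2 changes of the medullary stroma markers were -1.08 (Cldn11), -0.66 (Penk), -0.43 (Tnc), -0.03 (Alx1), -0.0037 (Lef1) and 0.03 (Foxl1). Those of the smooth muscle markers ranged from -0.86 (Tagln) to -0.01 (Des). No marker of these 4 lists was listed at 0 in a library. The ureteric tip list summed to 118% of wild type and the nephron progenitor list to 104%, with 0 genes called in either and with 0 of 7 and 1 of 7 below 0. What part a shift in cell makeup has in the Ntn1 values was not tested.

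**Figure D4:**
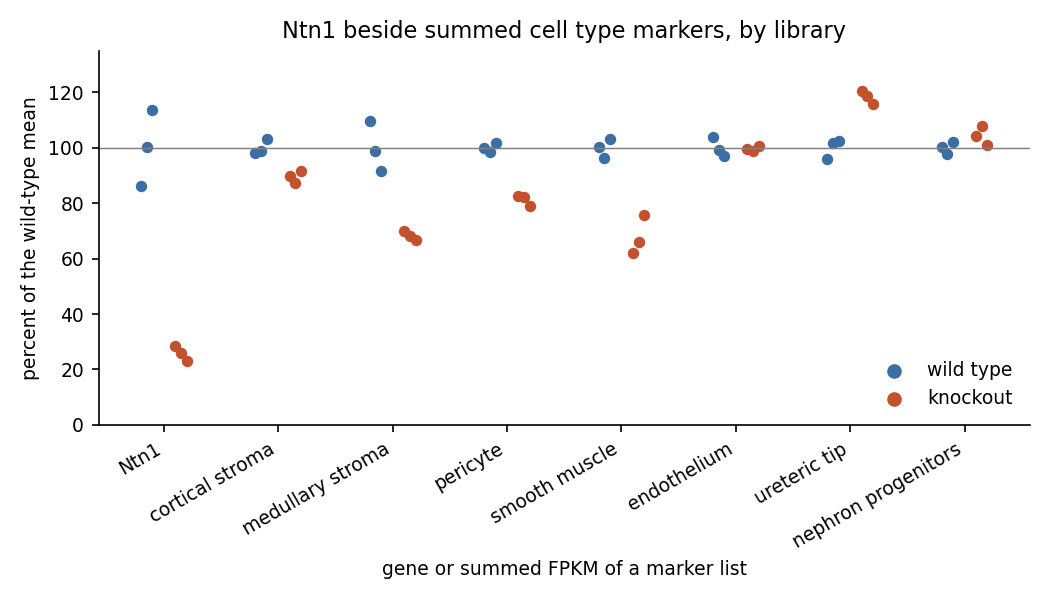
Ntn1 and the summed FPKM of 7 cell type marker lists in each library, in percent of the wild-type mean (blue wild type, red knockout, 3 libraries each). Ntn1 averages 25.8% of wild type in knockout libraries, against 89.6% for cortical stroma, 68.3% for medullary stroma and 99.7% for endothelium.

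The genes whose profile over the 6 libraries was most like that of Ntn1 were sought among 15499 genes that averaged at least 1 FPKM. Likeness was the root mean square difference between log2(FPKM + 1) profiles, each centred on its own mean. The closest was Lox, the gene of a collagen and elastin cross-linking enzyme, at a difference of 0.145 (Pearson r = 0.99 over 6 libraries). Next came Col12a1, a fibril-associated collagen gene (0.162), Clca3a1 (0.181), the aldehyde oxidase gene Aox3 (0.181) and the matrix proteoglycan gene Ogn (0.196), where the median over all genes compared was 0.830. These profiles share their libraries, and the likeness is mostly the gap between genotypes. Col12a1 measured 23.7, 23.5 and 24.9 FPKM in the wild-type and 9.78, 7.40 and 8.24 FPKM in the knockout libraries, 35.3% of wild type. Aox3 measured 3.29, 2.97 and 2.72 FPKM in the wild-type and 0.361, 0.208 and 0.321 FPKM in the knockout libraries. That is 9.91% of wild type, where Ntn1 was at 25.8%. Its likeness to Ntn1 depends on the pseudocount of 1, which understates changes of low genes. On the same measure the tested receptors lay between 0.749 (Unc5c) and 1.03 (Unc5b) from Ntn1. Because Ntn1 was picked for its gap between genotypes, these distances mostly restate the receptors' own changes.

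**Figure D5:**
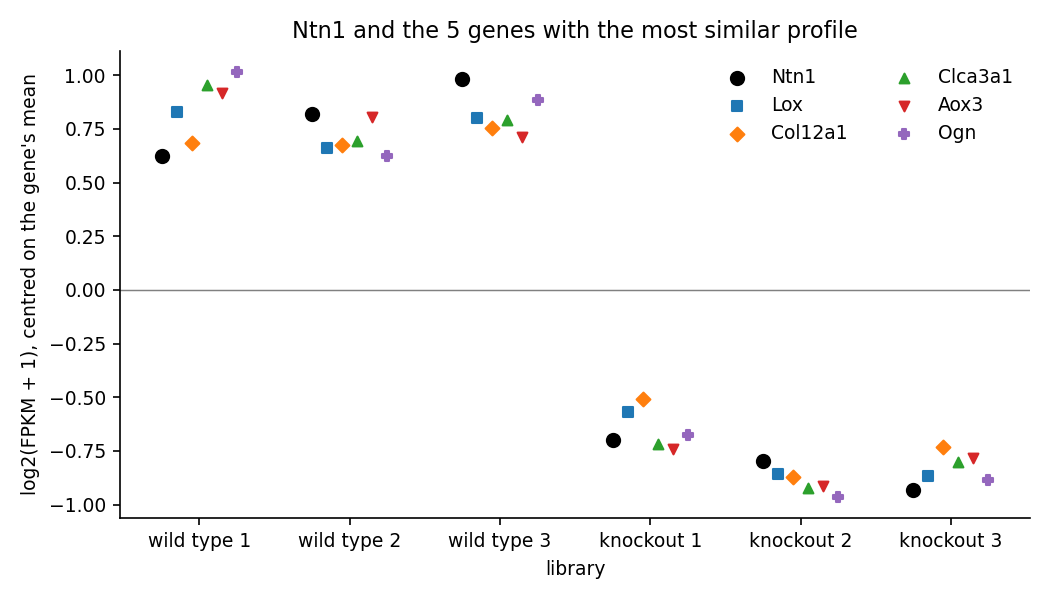
Log2(FPKM + 1) of Ntn1 and the 5 genes with the most similar profile, each centred on its own mean, in the 6 libraries. All 6 genes lie above 0 in the wild-type and below 0 in the knockout libraries, the gap by which they were chosen.

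Beyond the members, 53 other genes of netrin signalling were followed, all of them in the table and 46 of them tested. By limma 0 were called in either direction, and 4 lay lower and 4 higher at an unadjusted p under 0.05, which is 17.4% where 16.1% of all genes passed. Their log2 changes had a median of 0.00, like that of all genes tested, with 23 below and 23 above 0. Groups did not overlap for 10 genes that were lower and 8 that were higher, 39.1% of the list beside 24.3% of all genes.

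Of 7 tested alternative ligands, Flrt2 had the smallest p. It encodes a transmembrane protein that binds UNC5 receptors. Flrt2 measured 30.9, 33.1 and 30.9 FPKM in the wild-type and 24.4, 25.7 and 25.3 FPKM in the knockout libraries. The groups lay apart, at 79.4% of wild type, and the log2 change of -0.32 (SE 0.05) narrowly missed the threshold (limma adjusted p = 0.0501). It passed under 4 alternatives, with adjusted p between 0.0445 and 0.0470, and not under the others, where it reached 0.208. Cbln4, which encodes a secreted ligand of DCC, was scarce and lay higher in knockout libraries, at 1.96, 1.52 and 1.30 FPKM against 0.779, 0.975 and 0.901 FPKM in wild-type libraries (log2 change 0.45, limma adjusted p = 0.160). The neogenin ligand genes Rgma and Rgmb overlapped between genotypes, with log2 changes of 0.09 and 0.03.

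Among other receptors and effectors, Mcam, which encodes an adhesion molecule of vessels described as a netrin-1 receptor and is also on the pericyte list, was at 34.2 ± 1.25 in wild-type and 29.3 ± 1.47 FPKM in the knockout kidneys (SD, n = 3 each, limma adjusted p = 0.164). The kinase gene Src, which acts downstream of DCC, measured 10.9, 15.4 and 14.2 FPKM in the wild-type and 23.4, 19.1 and 19.4 FPKM in the knockout libraries. It lay higher in every knockout library (log2 change 0.58, SE 0.13, limma adjusted p = 0.126) but was not called. Of the 19 intracellular genes, 0 lay lower and 3 higher at an unadjusted p under 0.05, beside 6.94% lower and 9.14% higher among all genes. Their median log2 change was -0.02, with 12 of 19 below 0, and groups did not overlap for 5 that were lower and 3 that were higher, 42.1% beside the same 24.3% of all genes. The 12, like the 23 pathway genes below 0, include Tubb3. It was at 31.1 FPKM in wild-type library 3 and at most 1.21 FPKM in the other libraries. All 3 tested laminin partners of netrin-4 overlapped between genotypes, with Lamc1 at 82.7 ± 1.75 in wild-type and 83.3 ± 6.03 FPKM in the knockout kidneys (SD, n = 3 each).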

How the data were processed

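The submitters' processing notes name bcl2fastq 2.17.1.14, Salmon and the build GRCm38 (mm10), with no version of Salmon, annotation release or filter. What the authors deposited is a table of FPKM, which holds no counts. Symbols, positions and transcripts came from GENCODE M21, on the same build, and 24469 of 24749 identifiers had a symbol. Genes that averaged at least 0.5 FPKM were tested as log2(FPKM + 1), pseudocount 1, with limma 3.58.1 in R 4.3.3 (genotype only, trend and robust moderation), with the threshold at 0.05 after Benjamini-Hochberg adjustment. Changes on this scale understate those of low genes. The fit was tested on simulated data.

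Depth was approximated from the worth of 1 fragment, read from the lowest step of FPKM times length on genes with 1 transcript of at least 2 kb. Members, gene lists and rules were chosen with earlier results of these data known. Named genes are the members, the floxed genes, the 4 pathway genes of smallest p (fewer than 2 being called), and the 5 genes most like Ntn1 in profile; other names were chosen after their values were seen. Marker lists of podocytes (104% of wild type), Schwann cells (115%), adrenal cortex (99.5%) and red blood cells (108%) were also summed. Alternatives changed the pseudocount, filter, scaling, moderation and replicate block, or left out 1 library.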

Additional observations from a re-analysis of the deposited data

How the results depend on the processing

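Across 14 alternatives 0 of the 6 tested members other than Ntn1 was called, with Unc5b nearest (adjusted p between 0.0796 and 0.357). The Ntn1 change was -1.91 with a pseudocount of 0.1 and between -1.71 and -1.53 when 1 library was left out. Changes near 0 turned sign when a library was left out, with Dcc between -0.017 and 0.0502 and Unc5d between -0.12 and 0.0033. Of pathway genes 1 was called (Flrt2, lower) with a pseudocount of 0.1, a filter of mean at least 1 FPKM, quantile normalization or libraries rescaled to equal sums. That rescaling put Neo1 in knockout kidneys at 34.4 FPKM. Of all genes, between 54 and 158 were called without 1 library: 54 without wild-type library 2, and 68, 58 and 59 without knockout library 1, 2 and 3. Deviations of same-numbered libraries had correlations of 0.02, -0.04 and 0.05, within the range of different-numbered ones (-0.09 to 0.08). The labels do not say whether the numbers pair libraries, and so few correlations cannot decide it. With the replicate number as a block 32 genes were called over the whole table and 0 members or pathway genes, with an adjusted p of 0.343 for Unc5b and 0.398 for Unc5c. Depth limits Unc5a most.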
